A study of Aspergillus luchuensis with 6 samples.

Results

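Antisense start sites, clusters of capped RNA 5′ ends on the strand opposite to a main start site and a short way downstream of it, were described in rice koji made with Aspergillus luchuensis mut. kawachii, a white mould used in brewing. CAGE (cap analysis of gene expression) was used, in which each tag marks the first base of a capped transcript, so a tag count does not grow with transcript length. The libraries came from strain sirD, in which the sirtuin D gene is disrupted (n = 3), and from the control strain, labelled ctrl4 (n = 3). Members were chosen from the tags pooled over all 6 libraries. On scaffolds 1 and 2, positions with 2 or more tags formed 1 cluster where gaps between them on a strand were at most 20 bp. A leading cluster had 100 or more tags and no stronger leading peak of its strand under 2000 bp away. A member was any other cluster with 30 or more tags whose peak lay 100 to 1500 bp downstream of a leading peak of the opposite strand, which is called its sense start here. The rule gave 655 antisense members, of 36260 clusters in the whole table, and 345 sense starts, of 1211 leading clusters.

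Each group is 1 strain, and the labels do not say whether its 3 libraries came from separate cultures, so the spread that every p-value rests on may be technical. The sources used here do not say how sirD was disrupted or which markers either strain carries, and the level of sirD itself was not analysed. The table listed 3336690 to 3580777 tags per sirD library and 3148498 to 3275687 per control library. No gene models in these coordinates were used. "Sense" and "antisense" therefore name strands relative to a leading start, and whether the transcript from that start reaches the antisense site was not analysed here.

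Fungal genomes are compact, and transcripts of neighbouring genes often run towards or over one another, so RNA from both strands of 1 stretch is common. Antisense RNA can also start inside a transcribed gene. In budding yeast, nucleosomes behind the elongating polymerase are methylated on histone H3 and then deacetylated, and loss of that deacetylation lets cryptic starts fire inside genes. Sirtuins are NAD-dependent deacylases, many of which act on histones. These statements are background and were not tested here, and they do not say that a sirtuin carries out that deacetylation in yeast.

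The antisense members were mostly weak starts, and their tags were nearly uncorrelated with those of the sense start. They held 30 to 7791 tags over the 6 libraries with a median of 67, and 441 of the 655 had fewer than 100. Because 30 tags was the entry rule, the lower end of this range is set by the choice. Just inside the rule 12 members had 30 tags, and just outside it 13 clusters that met the other criteria had 29. Another 18 members had 1000 or more tags, and the 10 strongest held 27.7% of all 116101 member tags. Across the 655 pairs the Spearman correlation of antisense with sense tags was −0.0329, where several pairs share a sense start. The median member had 18.4% of the tags of its sense start. In 242 pairs the antisense start had under 10% of the sense tags, and in 60 under 1%. In 73 pairs the antisense start had more tags than the sense start. Members spanned a median of 65 bp, and their sense starts, with a median of 495 tags, spanned 140 bp.

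**Figure D1:**
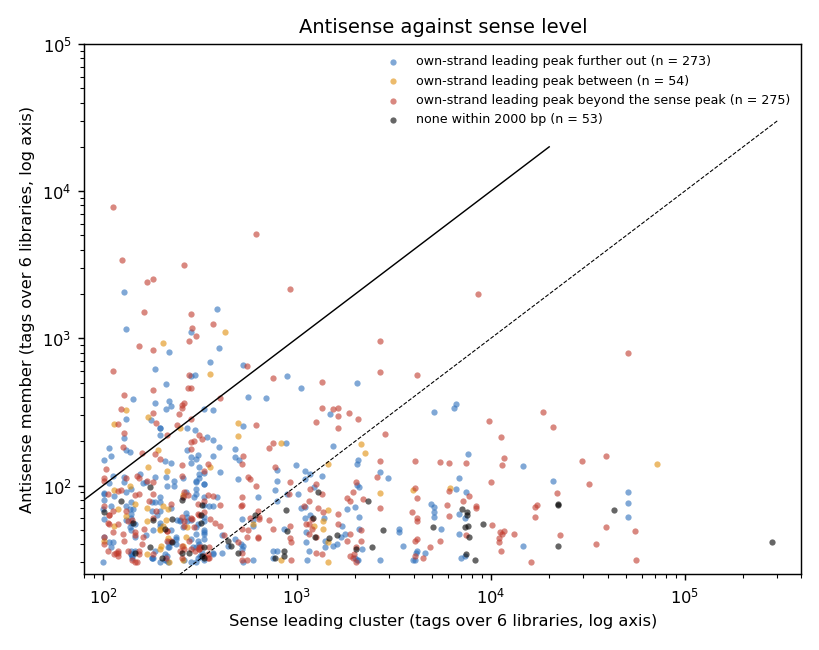
Tags over the 6 libraries of each antisense member (vertical, log axis) against its sense leading cluster (horizontal, log axis), 655 pairs coloured by where the nearest leading peak of the member's own strand lies. The solid line marks equal tags and the dashed line 10% of the sense tags; 73 members lie above the solid line and 242 below the dashed one.

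Antisense starts were found throughout the window and lay more sparsely there than starts of the same strand, or than opposite-strand starts on the upstream side. Per 1000 leading clusters, each 100-bp bin from 100 to 1500 bp downstream held 25.6 to 47.1 non-leading opposite-strand clusters of 30 or more tags. The same bins on the same strand held 84.2 to 233, with the most at 200 to 299 bp. On the upstream side, where divergent starts lie, the opposite strand held 73.5 to 132 per bin between 100 and 1500 bp. The strands are not counted alike here: a strong cluster close to a leading peak of its own strand is non-leading by the rule and so counted, while a strong one on the opposite strand may be leading and is left out. With leading clusters counted as well, a count added after seeing the data, the opposite strand held 27.3 to 61.1 per bin downstream and 81.8 to 245 upstream, and the same strand again 84.2 to 233 downstream. A cluster near several leading peaks was counted at each in both profiles, which are descriptions with no test. The median distance of a member from its sense peak was 853 bp, with 180 members up to 500 bp away, 216 above 500 and up to 1000 bp, and 259 above 1000 bp.

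**Figure D2:**
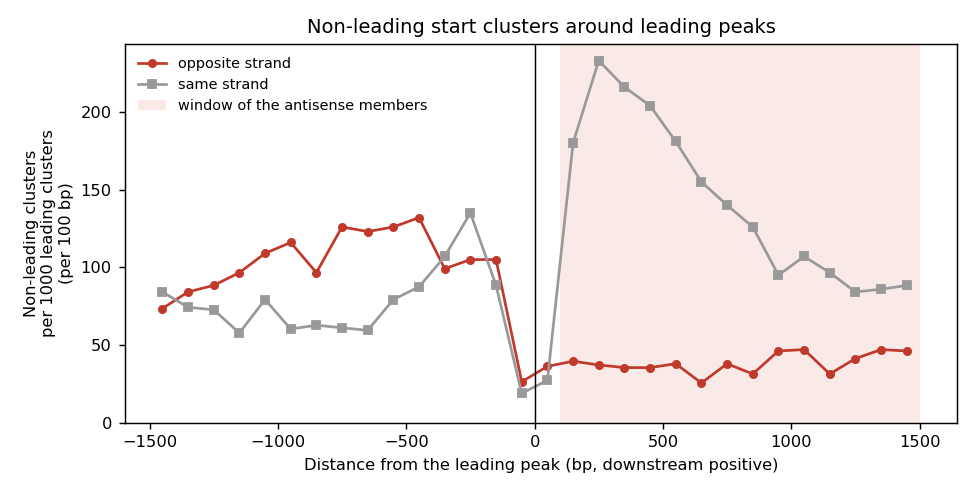
Non-leading clusters of 30 or more tags per 1000 leading clusters in 100-bp bins around the leading peak (horizontal, bp, downstream positive), on the opposite and on the same strand. In the shaded window the opposite strand runs between 25.6 and 47.1 and the same strand between 84.2 and 233; part of this gap is set by leaving out leading clusters, with which the opposite strand holds 27.3 to 61.1.

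Weak leading starts had an antisense member more often than strong ones. Of the 303 leading clusters with 100 to 330 tags, 148 (48.8%) had one, as did 91 of the 303 with 331 to 1544 tags. Of the 302 with 1547 to 5331 tags and of the 303 with 5387 or more, 53 each had one (17.5%). These shares are a description, since pooled tags chose both kinds of cluster. A sense start had up to 6 members: 178 had 1, 87 had 2, 39 had 3 and 41 had more. Members of 1 sense start share their partner and are not independent of one another. Scaffold 1 held 447 members and scaffold 2 held 208, with 319 on the plus strand and 336 on the minus strand.

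Members were also placed by the nearest leading peak of their own strand. For the 214 members with 100 or more tags the rule fixes such a peak within 2000 bp, since without a stronger one they would be leading clusters themselves. Of the 441 with fewer tags, where it does not, 388 (88.0%) had one, as did 83.5% of the 2412 other non-leading scaffold clusters of 30 to 99 tags. Of all 655 members, 53 (8.09%) had none. In 273 (41.7%) that peak lay further out and the member downstream of it. In 275 (42.0%) the peak lay beyond the sense peak, so that the member was upstream of a start that diverges from the sense start. In 54 (8.24%) it lay between the member and the sense peak. The members with no such neighbour are held below 100 tags by the rule. Among members below 100 tags the median level was 50 tags for those without the neighbour, 50 where it lay further out and 51 where it lay beyond the sense peak, so these levels were close. The median share of the sense tags in the same members was 5.51%, 14.2% and 9.79% in that order, with no test. In 35 pairs the antisense cluster overlapped the sense cluster itself.

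A stronger leading start of their own strand near the 6 members with most tags was fixed by the rule. In each case its peak lay beyond the sense peak and it diverged from the sense start. For the members starting at 1100511 and 453573 its cluster also overlapped the sense cluster. The sense starts of these 6 members were weak, with 112 to 614 tags over the 6 libraries. Cluster 1100511 to 1100882 (scaffold 1, plus strand) had 1119, 1126 and 1326 tags in sirD and 1457, 1440 and 1323 in the control. Its minus-strand sense start, 1101469 to 1101538, had 16, 18 and 22 tags in sirD and 21, 24 and 11 in the control. In CPM, which are tags scaled by the TMM-adjusted total over tested clusters, the antisense start had 351 ± 36.5 in sirD and 445 ± 2.67 in the control (SD, n = 3 each). Neither start passed the test (adjusted p = 0.0908 for antisense and 0.895 for sense), while the leading start of the member's own strand at 1100943 to 1102913 fell (log2 −0.38, adjusted p = 0.0452). This member had 69.6 times the tags of its sense start, more than any other. The next in ratio were the minus-strand members 1029102 to 1029195 on scaffold 2 (26.9 times) and 848946 to 849222 on scaffold 1 (16.0 times), then plus-strand member 453573 to 453931 on scaffold 1 (14.3 times) and minus-strand member 1275857 to 1276152 on scaffold 2 (14.0 times).

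Of the 6 members with most tags, 1 was lower and 1 higher in sirD. Cluster 700550 to 700970 (scaffold 1, minus strand) had 621, 625 and 616 tags in sirD, against 1048, 882 and 1284 in the control. The libraries did not overlap, and the level fell to 183 ± 1.63 CPM in sirD, against 342 ± 84.1 in the control (SD, n = 3 each, log2 −0.90, SE 0.16, adjusted p = 0.000179). Cluster 1275857 to 1276152 (scaffold 2, minus strand) had 523, 537 and 482 tags in sirD and 286, 379 and 341 in the control. Its level was 151 ± 7.44 CPM in sirD and 106 ± 16.7 in the control (SD, n = 3 each, log2 0.51, SE 0.16, adjusted p = 0.0230). That call was lost without control replicate 1 (adjusted p = 0.0915) or sirD replicate 2 (adjusted p = 0.0807). Those starting at 1029102, 262571 and 453573 missed the threshold (adjusted p = 0.568, 0.799 and 0.156).

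The first comparison asked which antisense starts differ between the strains. Of the 655 members, 41 were higher and 68 lower in sirD (edgeR's quasi-likelihood test, adjusted p below 0.05 over 5950 clusters of 30 or more tags). That is 16.6% of members, where 18.3% of all tested clusters and 15.0% of the 3862 other non-leading scaffold clusters were called. By direction, 6.26% of members were higher against 7.80% of all tested clusters, and 10.4% were lower against 10.5%. The share of members that changed was thus near the background. The median log2 difference was −0.04 over members and 0.01 over all tested clusters. Among the called members the median log2 difference was 1.71 for the higher and −1.66 for the lower, and at least 2-fold changes were seen in 37 higher and 56 lower members (14.2% of members, against 11.5% of all tested clusters). In 18 of the higher and 19 of the lower members, 6 libraries at the level of the weaker strain would have held fewer than 30 tags. These met the entry rule only through the strain in which they were high, so their changes are partly set by it. DESeq2 called 27 higher and 45 lower among the 560 members to which it gave an adjusted p.

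The antisense start that rose with the smallest p was plus-strand member 1316422 to 1316536 of scaffold 1, 307 bp from its sense peak and overlapping its sense cluster. It had 58, 82 and 55 tags in sirD, against 15, 8 and 6 in the control, with no overlap between the strains. Its level was 19.1 ± 4.09 CPM in sirD and 3.02 ± 1.36 in the control (SD, n = 3 each, 6.20-fold, log2 2.63, SE 0.32, adjusted p = 1.02e-06). The sense start at 1316467 to 1317043 had 444, 585 and 642 tags in sirD and 400, 448 and 322 in the control, which did not pass the test (log2 0.41, adjusted p = 0.0745). The antisense cluster reached 11.7% of the sense tags in sirD, against 2.48% in the control.

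A pair of higher members on scaffold 1 shared 1 sense start, 1490988 to 1491052 on the minus strand. Cluster 1490041 to 1490119 (plus strand) had 32, 21 and 29 tags in sirD and 2, 1 and 0 in the control. It met the 30-tag rule only through sirD, and the ratio of scaled tags, partly set by that rule, was 25.4 (exact 95% interval 8.40 to 126, counting error only; adjusted p = 2.59e-06). Cluster 1489498 to 1489698 (plus strand) had 80, 95 and 69 tags in sirD and 24, 32 and 28 in the control (2.69-fold, log2 1.43, SE 0.24, adjusted p = 7.90e-05). Their sense start had 30, 65 and 50 tags in sirD and 78, 76 and 69 in the control (log2 −0.73, adjusted p = 0.0353). Antisense and sense thus moved in opposite directions here, with no overlap between the strains at any of the 3 clusters. Neither leading start of the members' own strand, at 1491159 to 1491498 and at 1488826 to 1489054, passed the test (adjusted p = 0.137 and 0.955).

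The other 5 of the 8 higher members with the smallest p were weak in the control. Of these, 2022505, 508699, 290509 and 1241760 met the 30-tag rule only through sirD, so their differences are partly set by it. Cluster 1838026 to 1838115 (scaffold 1, minus strand) had 50, 34 and 39 tags in sirD and 4, 8 and 11 in the control (log2 2.29, SE 0.37, adjusted p = 4.93e-05). It overlapped its broad sense cluster at 1837365 to 1838334, which rose less (log2 0.42, adjusted p = 0.0412), while the leading start of its own strand at 1836512 to 1836690 fell (log2 −0.64, adjusted p = 0.0441). Cluster 2022505 to 2022583 (scaffold 1, plus strand) had 27, 28 and 38 tags in sirD and 1, 7 and 4 in the control (log2 2.81, SE 0.45, adjusted p = 5.12e-05; log2 3.44 without control replicate 2), and its sense start at 2023301 to 2023550 rose too (log2 1.84, adjusted p = 5.16e-06). Cluster 508699 to 508727 (scaffold 1, plus strand) had 13, 10 and 8 tags in sirD and 1, 0 and 0 in the control, a ratio of 28.9 (exact 95% interval 4.81 to 1176, counting error only; adjusted p = 0.000488). Its single control tag came from replicate 1. Its sense start at 509100 to 509477 had 1149, 1014 and 783 tags in sirD and 577, 564 and 374 in the control (log2 0.86, adjusted p = 0.000399). Every library of sirD stood above every library of the control at each of these clusters. Cluster 290509 to 290646 (scaffold 1, minus strand) had 12, 24 and 28 tags in sirD and 3, 5 and 2 in the control (adjusted p = 0.000489), and had no leading start of its own strand within 2000 bp. It made up 0.484% of its sense tags in sirD and 0.110% in the control, and its sense start rose as well (log2 0.44, adjusted p = 0.0234). Cluster 1241760 to 1241818 (scaffold 2, plus strand) had 23, 18 and 19 tags in sirD and 5, 3 and 3 in the control (adjusted p = 0.000574), and the leading start of its own strand at 1241522 to 1241733 also rose (log2 1.16, adjusted p = 0.00605).

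Among lower members the smallest p belonged to cluster 1457610 to 1457720 (scaffold 1, minus strand), 893 bp from its sense peak. It had 20, 40 and 28 tags in sirD, against 120, 145 and 138 in the control. The level fell to 8.62 ± 2.85 CPM in sirD, against 42.7 ± 5.35 in the control (SD, n = 3 each, log2 −2.30, SE 0.24, adjusted p = 1.11e-07). The sense start at 1456747 to 1456906 had 53, 35 and 32 tags in sirD and 39, 26 and 26 in the control, with overlap (log2 0.30, adjusted p = 0.511). The antisense start had 73.3% of the sense tags in sirD, against 443% in the control. The leading start of its own strand, at 1458819 to 1459027, also fell (log2 −0.98, adjusted p = 3.32e-05).

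**Figure D3:**
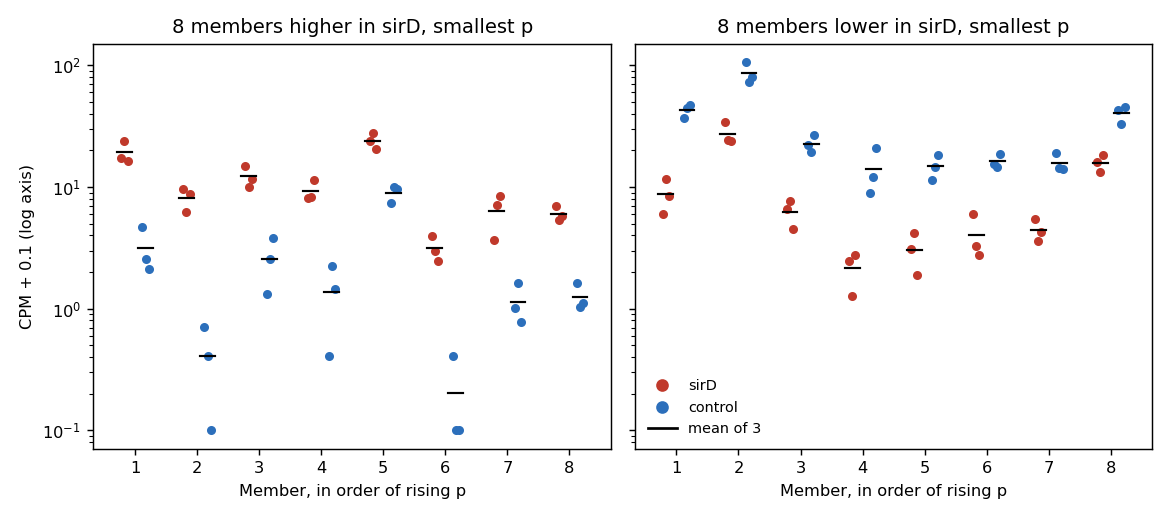
CPM + 0.1 (log axis) in each library of the 8 higher and 8 lower antisense members with the smallest p, in order of rising p, with sirD left of control in each pair and black bars for the mean of 3. No member shows overlap between the strains, which adds no support, since the members were picked by p from these same libraries.

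Some lower members fell together with their sense start. Cluster 278762 to 278899 (scaffold 1, plus strand) had 114, 84 and 80 tags in sirD and 346, 238 and 238 in the control (log2 −1.66, SE 0.20, adjusted p = 8.24e-07). Its sense start at 279825 to 279859 had 36, 49 and 34 tags in sirD and 144, 80 and 81 in the control (log2 −1.45, adjusted p = 9.19e-05). Cluster 1921778 to 1921817 (scaffold 2, plus strand) had 10, 14 and 6 tags in sirD and 37, 47 and 54 in the control (log2 −2.30, SE 0.34, adjusted p = 1.46e-05), and its sense start at 1921935 to 1922052 had 2, 8 and 16 in sirD and 40, 41 and 31 in the control (log2 −2.19, adjusted p = 0.000229). Cluster 885174 to 885290 (scaffold 1, plus strand) had 20, 11 and 9 tags in sirD and 50, 47 and 55 in the control (log2 −2.02, SE 0.31, adjusted p = 2.98e-05), beside a sense start at 886268 to 886401 that fell by 2.00 on the log2 scale (adjusted p = 1.43e-08). In these 3 pairs the antisense to sense ratio changed by a log2 of −0.24 (SE 0.30), −0.05 (SE 0.61) and −0.05 (SE 0.30), which did not pass its test (adjusted p = 0.720, 0.980 and 0.953). The leading start of the member's own strand also fell at the first, at 278932 to 279430 (log2 −1.70, adjusted p = 3.17e-06), and at the second, at 1920748 to 1920813 (log2 −0.86, adjusted p = 0.0452). At the third, at 885329 to 885381, it did not pass the test (log2 −0.54, adjusted p = 0.197).

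At other lower members the sense start fell less or did not pass the test. Cluster 1080656 to 1080782 (scaffold 1, plus strand) had 8, 4 and 9 tags in sirD and 29, 39 and 61 in the control (log2 −2.71, SE 0.39, adjusted p = 1.20e-05), beside a sense start that fell by 0.77 on the log2 scale (adjusted p = 0.0141). The leading start of its own strand, whose peak lay 72 bp away, fell by 1.87 on the log2 scale (adjusted p = 7.89e-05). Cluster 1451036 to 1451173 (scaffold 2, minus strand) had 22, 26 and 15 tags in sirD and 72, 63 and 78 in the control (log2 −1.86, SE 0.26, adjusted p = 8.25e-06). Its sense start at 1450232 to 1451072, which it overlapped, had 1229, 1543 and 1743 tags in sirD and 1394, 2163 and 1711 in the control (adjusted p = 0.175), while the leading start of its own strand at 1450816 to 1450960 fell (log2 −1.17, adjusted p = 0.00117). The scaffold 2 plus-strand members 1926027 to 1926186 and 1925769 to 1925930 share a sense start at 1926256 to 1926556. They had 18, 12 and 14 and 54, 45 and 61 tags in sirD, against 62, 46 and 41 and 141, 107 and 133 in the control (log2 −1.85 and −1.36, adjusted p = 4.41e-05 and 4.56e-05). That sense start had 117, 118 and 121 tags in sirD and 160, 130 and 111 in the control (adjusted p = 0.361), and the leading start of their own strand at 1927324 to 1927737 did not pass either (log2 0.04, adjusted p = 0.880). In the last 100 kb of scaffold 2, where these lie, 6 of 18 members (33.3%) and 42 of the 152 other tested clusters (27.6%) were lower, where 10.4% of all members were. All 6 of these lower members lie downstream of the sense starts at 1921935 to 1922052 or 1926256 to 1926556, so they are not independent of one another. The sense start at 1921935 to 1922052 met the 100-tag rule only through the control. The stretch was chosen after its values were seen.

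A larger share of the sense starts than of their antisense members was called. Of the 345, 40 were higher and 81 lower in sirD (35.1%), where 30.1% of all 1211 leading clusters and 28.1% of the 866 without a member were called. Lower sense starts made up 23.5%, against 17.3% of all leading clusters, and higher ones 11.6%, against 12.8%. Their median of 495 tags, against 67 for members, bears on how many of each could pass the test, and the part of tag level in these shares was not tested. Some lower sense starts met the tag rule for leading clusters only through the control. Examples on scaffold 2 are 1888540 to 1888589 (27 sirD and 192 control tags) and 1327948 to 1328003 (9 and 97). A higher one, 1865319 to 1865417 on scaffold 1 (84 and 17), met it only through sirD. That rule partly sets such changes, and these starts were not counted.

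The second comparison set the change on the antisense strand beside that on the sense strand. In 25 pairs both starts were lower in sirD, which is 16.1% of the pairs with a lower sense start, where 10.4% of all members were lower. In 10 both were higher, which is 12.5% of the pairs with a higher sense start, where 6.26% of all members were higher. In 8 the antisense start was higher while the sense start was lower, which at 5.16% of the pairs with a lower sense start is near that 6.26%. These shares were not tested, and the pairs share sense starts. In 0 pairs the reverse was seen by edgeR or by DESeq2 (4 with an unadjusted edgeR p below 0.05 on both strands). Another 66 antisense members changed beside a sense start that did not pass the test, and 192 members that did not pass lay beside a sense start that changed. The median antisense log2 difference was −0.26 where the sense start was lower (155 pairs), 0.25 where it was higher (80 pairs) and −0.04 where it was not called (420 pairs). Across the 655 pairs the Pearson correlation of the log2 differences was 0.218 and Spearman's rho 0.198, and among the 214 members with 100 or more tags Pearson's r was 0.256. Both strands come from the same libraries with the same scaling, and many pairs share a sense start, so these are descriptions.

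The change of a member was also set beside that of its own-strand neighbour, as a description. Among the 273 members with the own-strand leading peak further out, the log2 differences correlated at 0.486 with that peak and at 0.218 with the sense start. Among the 275 whose own-strand peak lay beyond the sense start, the values were 0.104 and 0.167, and among the 54 with that peak between they were 0.306 and 0.354. The share of called members was 15.8%, 17.5% and 18.5% in these 3 arrangements and 15.1% among the 53 members without such a neighbour, and the median log2 difference was 0.05, −0.18, −0.05 and −0.02 in the same order. Differences between these correlations or shares were not tested.

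**Figure D4:**
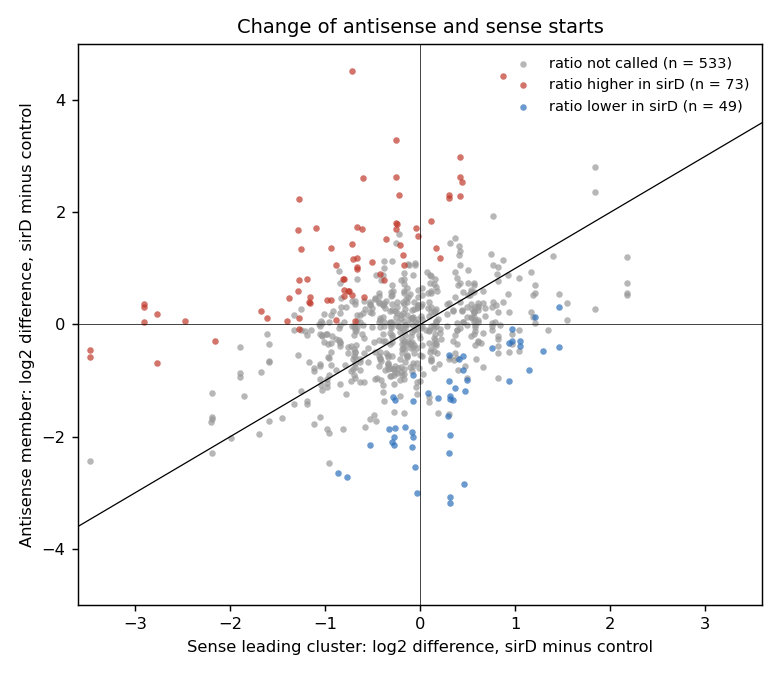
Log2 difference, sirD minus control, of each antisense member (vertical) against its sense leading cluster (horizontal) for 655 pairs, with the line of equal change. The 73 pairs with a higher ratio of antisense to sense in sirD lie above the line and the 49 with a lower ratio below it.

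The third comparison tested the ratio of antisense to sense within each pair, as an interaction of strand and strain. The ratio was higher in sirD in 73 pairs and lower in 49 (edgeR's quasi-likelihood test, adjusted p below 0.05 over 4517 pairs of a non-leading with a leading cluster). These 122 pairs are 18.6% of members, where 10.7% of all pairs were called. The 122 involved 93 sense starts, and pairs that share one are not independent. Where a member or sense start met its tag rule only through 1 strain, that rule partly sets the ratio change. Such pairs were not counted among the 122. Higher ratios made up 11.1% of members against 5.73% of all pairs, and lower ones 7.48% against 4.98%. Among pairs outside the members the share was 8.32% of 3113 on 1 strand and 13.8% of 749 on opposite strands. Other pairs used the nearest leading peak, and differences in tag level between these sets and the members were not tested. Of the 73 higher ratios, 31 came with a change called on the sense strand alone, lower in sirD at each of the 31. Another 20 came with a change called on the antisense strand alone, 13 with both and 9 with neither. Of the 49 lower ratios, 29 came with the antisense strand alone, 14 with the sense strand alone, 1 with both and 5 with neither. Without sirD replicate 2 the count was 72 (43 higher, 29 lower). Lower ratios numbered 26 without sirD replicate 3 (60 higher), 30 without control replicate 1 (60 higher) and 32 without control replicate 3 (52 higher). With clusters of 10 or more tags in the fit the count was 69 (46 higher, 23 lower), which is 10.5% of members. The share of all pairs called in these refits is not given here. Among the 53 members without an own-strand leading peak within 2000 bp, 4 ratios were called in the main fit (7.55%).

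The ratio changed with the smallest p where a sense start fell and its antisense starts did not pass the test. Sense start 1888540 to 1888589 (scaffold 2, minus strand) had 11, 8 and 8 tags in sirD, against 101, 48 and 43 in the control (log2 −2.91, adjusted p = 8.24e-07). The antisense cluster at 1887025 to 1887162 had 145, 171 and 151 tags in sirD and 143, 120 and 78 in the control (adjusted p = 0.237), and that at 1887295 to 1887598 had 62, 81 and 71 in sirD and 52, 61 and 48 in the control (adjusted p = 0.363). The ratio rose by a log2 of 3.22 (SE 0.37, adjusted p = 4.29e-08) and 3.15 (SE 0.42, adjusted p = 9.54e-07). The sense start, with 27 tags in sirD and 192 in the control, met the tag rule for leading clusters only through the control. That rule thus partly sets its fall and both ratio changes. A like pattern was seen at cluster 1280025 to 1280057 (scaffold 1, plus strand). It had 9, 22 and 14 tags in sirD and 10, 16 and 14 in the control, beside a sense start at 1281354 to 1281502 that had 336, 420 and 497 tags in sirD and 1848, 2275 and 2351 in the control (ratio log2 2.53, SE 0.40, adjusted p = 2.01e-05). There the leading start of the member's own strand at 1281717 to 1281748 fell too (log2 −3.65, adjusted p = 2.2e-06). With 118 pooled tags, that own-strand start met the tag rule for leading clusters only through the control, which partly sets its fall.

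At cluster 1235143 to 1235186 (scaffold 1, plus strand) the antisense strand alone fell. It had 1, 7 and 1 tags in sirD and 29, 22 and 22 in the control (adjusted p = 7.38e-05), and met the 30-tag rule only through the control, which partly sets this fall and the ratio change. Its sense start at 1236115 to 1236265 had 719, 812 and 857 tags in sirD and 471, 696 and 620 in the control (adjusted p = 0.195). The ratio fell by 3.41 on the log2 scale (SE 0.50, adjusted p = 5.51e-06) and by 4.86 without sirD replicate 2, which held 7 of the 9 sirD tags, while the leading start of the member's own strand at 1236349 to 1236556 rose (log2 0.72, adjusted p = 0.00128). The pairs at 1490041 and 1457610 described above were the others among the 6 ratio changes with the smallest p, with log2 changes of 5.27 (SE 0.65, adjusted p = 1.95e-07; 6.09 without control replicate 1) and −2.59 (SE 0.38, adjusted p = 5.51e-06).

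The 8 pairs with a higher antisense and a lower sense start involved 6 sense starts. Since they were picked by calls in opposite directions, that their ratios also passed adds no support. In 5 of the 8, the members at 1490041 and 445095 among them, the antisense start met the 30-tag rule only through sirD, which partly sets its rise. Antisense log2 differences ran from 1.03 to 4.52 and sense log2 differences from −1.28 to −0.60. Besides those at 1490041 and 1489498, 2 examples chosen after their values were seen are cluster 445095 to 445166 (scaffold 1, minus strand) and cluster 1125313 to 1125358 (scaffold 2, plus strand). The first had 12, 24 and 11 tags in sirD and 3, 6 and 0 in the control (adjusted p = 0.00788), beside a sense start at 444174 to 444324 that fell by 1.28 on the log2 scale (adjusted p = 0.00383). The second had 18, 18 and 17 tags in sirD and 7, 4 and 8 in the control (adjusted p = 0.0249), beside a sense start at 1126592 to 1126728 that fell by 0.95 on the log2 scale (adjusted p = 0.00222).

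The last comparison took 1 value per library over all antisense starts. Members held 1.18%, 1.23% and 1.22% of the clustered scaffold tags in sirD and 1.52%, 1.31% and 1.37% in the control. The strains did not overlap, with 1.21% ± 0.0293 in sirD and 1.40% ± 0.110 in the control (SD, n = 3 each, two-sided exact permutation p = 0.1, adjusted over the 3 values 0.3). All opposite-strand tags in the windows outside leading clusters, with no minimum per cluster, made up 1.95% ± 0.107 of scaffold tags in sirD and 2.14% ± 0.161 in the control (SD, n = 3 each, exact permutation p = 0.3, adjusted 0.3). The median log2 ratio of antisense to sense tags, with 0.5 tags added to each, was −2.38, −2.42 and −2.51 in sirD and −2.50, −2.69 and −2.61 in the control (means −2.44 ± 0.0657 and −2.60 ± 0.0944, SD, n = 3 each, exact permutation p = 0.2, adjusted 0.3). With 3 libraries a strain no p can go below 0.1, so none of the 3 could pass 0.05. The difference in median ratio, 0.162 here, was 0.0527 with positions joined within 10 bp, 0.250 within 50 bp and 0.0937 with the window ended at 1000 bp. The summed share weights strong members, of which 10 hold 27.7% of the tags, and the median ratio weights all members alike.

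**Figure D5:**
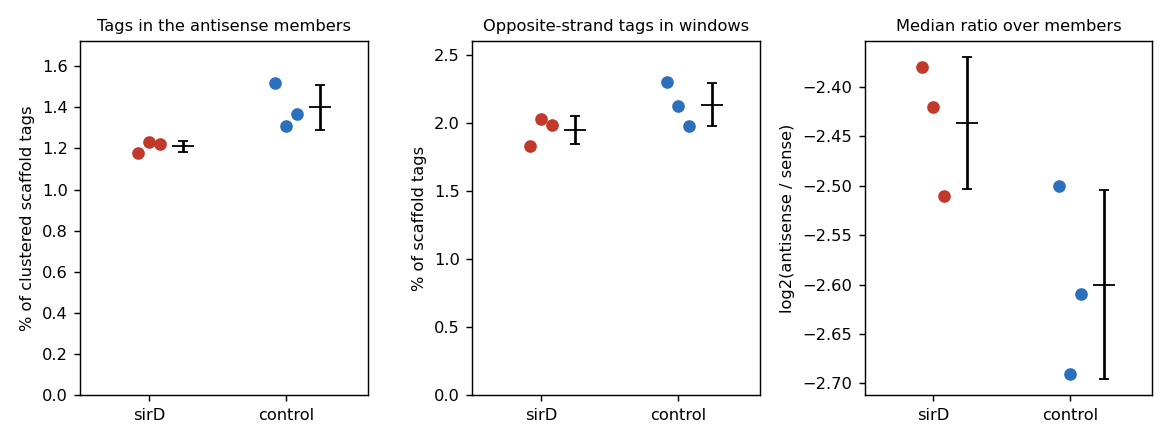
Values of each library, with mean and SD of 3 beside them: percent of clustered scaffold tags in the 655 members, percent of scaffold tags on the opposite strand within the windows, and the median log2 ratio of antisense to sense. The summed share does not overlap between sirD and control; the other values do.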

How the data were processed

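The authors deposited whole-number counts of CAGE tags per position and strand in 1 table, whose 6 column names match the sample descriptions. Per the submitters' processing notes the tools were FastQC, BWA and bedtools, without versions. Mapping settings, genome build and how multiply matching reads were handled: not given in the sources used here. Positions count from 0 in the table and 1 was added. The 1048575 rows stop inside scaffold 2 (DF126448.1; scaffold 1 is DF126447.1), which has no rows at 4748 to 10002, 47455 to 100011 and 474756 to 1000002. No member's window reached an unlisted position.

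The members, rules and tests were chosen with earlier results of these data known. Clusters of the whole table with 30 or more pooled tags (5950) were TMM-scaled and tested with edgeR 4.0.16 (R 4.3.3, limma 3.58.1) and no covariates, so every member was tested. The ratio model had 12 columns per pair (6 libraries, both clusters) with library, strand and strand-by-strain terms. P-values were Benjamini-Hochberg adjusted over all rows of each fit, and SE were derived from the F statistic. Both fits were run on simulated counts, drawn independently with the same dispersion for every cluster. That setting is simpler than these data, so it does not measure error rates here. Per-library values were compared with exact permutation tests. Named members are by p the first 8 higher and first 8 lower, the 6 with the smallest ratio p, the 6 with most tags and the 5 with the highest ratio to sense. Alternatives were DESeq2 1.42.0, limma on ratios, other scalings, filters, cluster definitions and windows, left-out libraries and a replicate block. The arrangement of own-strand neighbours, its values below 100 tags and the profile with leading clusters were added after seeing the data. Intervals rest on tags pooled within each strain, so they cover counting error only and leave out the spread between libraries. The sources name no molecular identifiers for the tags.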

Additional observations from a re-analysis of the deposited data

How the results depend on the processing

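The 109 changed antisense members became 81 to 97 with 1 library left out, 72 with DESeq2 (which gave 95 members no adjusted p, and shared all 72 with edgeR), 66 of 396 with the window ended at 1000 bp and 8 of 53 among members without an own-strand leading peak within 2000 bp. The last 2 counted fewer members. The 121 changed sense starts became 94 to 121 with 1 library left out and 17 of 44 for those 53 members. The 122 changed ratios became 72 to 107 with 1 library left out, 69 with clusters of 10 or more tags in the fit (the cause was not tested), 66 of 396 in the shorter window and 4 of the 53. Other scalings, filters, cluster definitions and tools kept each count within 1.5 times. No scaling moved the median log2 difference of all clusters by 0.1.

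Deviations of same-numbered libraries correlated at 0.0626, 0.0513 and 0.0340, above the −0.0691 to 0.024 of differently numbered ones. All these values are small, and the numbers were not taken to pair the libraries in the main tests. With a replicate block 112 antisense members and 124 sense starts changed. With limma 146 ratios changed under the block, against 112 with limma and no block. Of the main calls, 106 of the 109 antisense and 109 of the 122 ratio calls were shared with the block. The summed share differed by −0.187 percentage points (exact sign-flip permutation p = 0.25), the window share by −0.188 (p = 0.5) and the median ratio by 0.162 (p = 0.25) under the block.

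Of 346 combinations of a named member and an alternative, 342 kept direction and call. The member at 508699 had no result with edgeR's filterByExpr or with DESeq2, and these are not among the 346. The calls lost were those at 1275857, given with the result. The member at 262571, not called at −0.08, had −0.23 to 0.08 with 1 library left out, above 0 at 0.02 without sirD replicate 1 and at 0.08 without control replicate 3. The summed share without 1 library differed by −0.233 to −0.126, the window share by −0.268 to −0.107 and the median ratio by 0.118 to 0.212. With the window ended at 1000 bp these differences were −0.0947, −0.107 and 0.0937. Among members without an own-strand leading peak the summed share differed by −0.00131 and the median ratio by 0.108. With positions joined within 10 bp the median ratio differed by 0.0527 (exact permutation p = 0.8), and within 50 bp by 0.250 (p = 0.1). The cause of these moves was not tested. Without control replicate 1 the log2 difference at 1490041 was 5.35 (4.52 with all libraries) and that at 508699 was 6.34 (4.42). The control then held 1 tag and 0 tags, so neither is a bound. Members with few tags limit what could pass: 441 had fewer than 100 over 6 libraries.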
